A study of Homo sapiens and Mus musculus with 7 samples.

Results

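The strongest KAP1 peaks of mouse erythroblasts are the autosomal peaks whose deposited score was at least 100, and there were 3600 of them among 44780 autosomal peaks and 45024 peaks in the whole list. These peaks were chosen by their measured score, so their scores are a description and carry no test. The score was given per peak, and the peak names point to MACS. That program finds stretches of the genome where reads from an immunoprecipitation pile up beyond their background. The scale is not stated in the list, where the lowest value was 50. Early MACS releases write a log-transformed p-value in this column, and if that holds here a score ranks peaks by significance and not by fold enrichment. "Strongest" below means only highest in this score. Of the autosomal peaks, 8.04% reached 100, which is the choosing rule itself and not a result.

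The series mapped KAP1 on chromatin of red cell precursors and also profiled RNA of a human erythroleukaemia line, HEL, which is not described here. The chromatin came from CD71+Ter119+ cells, sorted from the marrow of mice of mixed strain aged 8 to 12 weeks and labelled Kap-flox/stopfloxYFP and KAP1 WT. The labels name no Cre for these cells and give neither the sex nor the number of animals pooled. KAP1 was immunoprecipitated in 1 library, with IgG and with total input as controls in 1 library each, so no peak has a replicate check, and the depth of the libraries is unknown here.

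KAP1, encoded by Trim28, is a corepressor that does not bind DNA by itself. It is brought to its sites by the many zinc finger proteins that carry a KRAB domain, and gathers enzymes that lay down the repressive histone mark H3K9me3 and compact chromatin. It is best known for keeping transposable elements silent, for protecting imprinted regions, and for binding at the genes of the zinc finger family itself. CD71, the transferrin receptor, and Ter119, a marker of the red cell lineage, are both found on erythroblasts, the nucleated precursors that make haemoglobin and lose their mitochondria late in maturation. No expression was measured in the sorted cells, so their identity rests on the sort. Positions are given in mouse build mm9 and counted from 1. The list pairs no peak with a gene, and mm9 gene models and sequence were not used here.

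A few very high peaks stood above a large body of similar ones. Of the 3600 strongest peaks, 1365 scored from 100 to below 110, 795 from 110 to below 120 and 1036 from 120 to below 150. A further 338 scored from 150 to below 200, 51 from 200 to below 300, and 15 at 300 or more. The median score was 115.0, and 90% of the peaks scored at most 153.0.

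The threshold fell within a continuous range of values. Just inside it were peaks with scores of 100.02 on chromosomes 18, 7 and 9 (chr18:15251989-15252652, chr7:119874373-119875183 and chr9:69324786-69325643) and of 100.01 on chromosomes 1 and 17 (chr1:96685705-96686186 and chr17:70889444-70889925). Just outside it, chr19:44567865-44568557 scored 99.98 and chr11:118311747-118313074 scored 99.97. The peaks chr17:31032957-31034823 and chr4:106881844-106883918 scored 99.94 each, and chr1:132918728-132919435 scored 99.93. The scores on both sides of the threshold thus differed by hundredths, and widths were 482 to 858 bp inside and 693 to 2075 bp outside.

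The pair of highest peaks both lay on chromosome 17. The peak at chr17:4625909-4626756 was 848 bp wide and scored 1558.86. The peak at chr17:39979777-39985944 scored 1278.68 and was the widest of all 3600, at 6168 bp. Their scores were far above the third, which was 704.96 at chr11:24999938-25000368, a peak only 431 bp wide. All later scores followed in smaller steps. Neither chromosome 17 peak was checked against ribosomal RNA copies or known artefact regions of mm9, so their scores and the width of the second are given as deposited and not as evidence of KAP1 binding there.

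The next peaks came from many chromosomes. The fourth was chr5:114622632-114623481 with a score of 522.64, the fifth chr1:12634684-12635098 with 458.54, and the sixth chr9:14504958-14505539 with 452.25. The seventh to ninth were chr14:104735661-104736399 with 406.48, chr9:70653634-70654277 with 385.65 and chr2:125973461-125973903 with 373.58. Between 357.31 and 308.94 lay chr14:60456247-60457728, chr5:104353283-104354471, chr5:27999744-28000581, chr6:125826666-125827425, chr5:131995105-131995827 and chr12:70260100-70260740, in falling order. The last of the 20 highest were chr18:13428224-13428756 with 290.01, chr12:82275601-82277387 with 277.36, chr13:59013521-59014393 with 272.88, chr15:27900376-27902515 with 272.87 and chr14:73944642-73945619 with 266.30. These 20 peaks fell on 12 chromosomes, with 4 on chromosome 5 and 3 on chromosome 14.

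**Figure D1:**
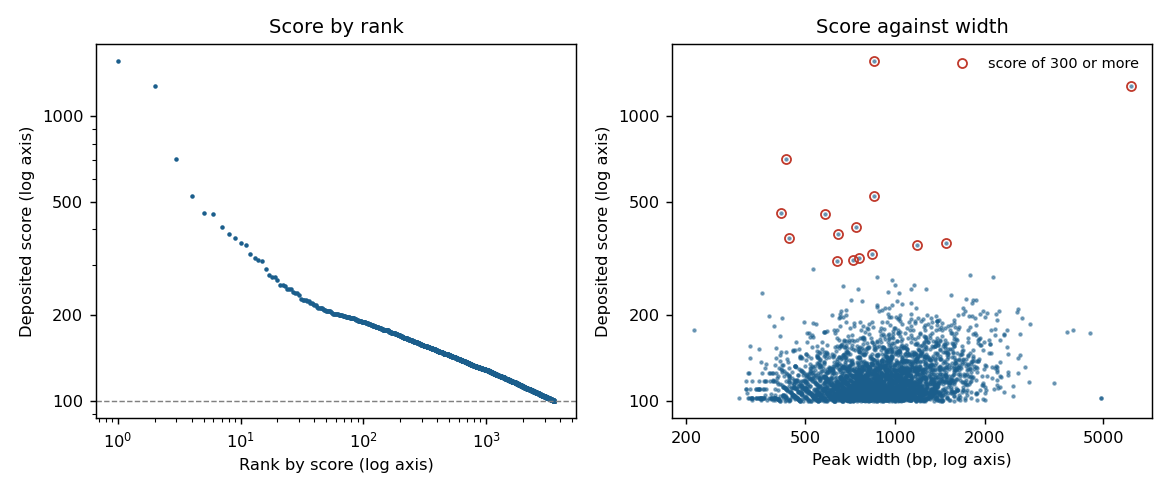
The left panel plots the deposited score of each of the 3600 strongest peaks against its rank, both on log axes, with the score minimum of 100 dashed, and the right panel plots score against peak width in bp, both on log axes. The 15 peaks at 300 or more, circled, were 415 to 6168 bp wide, with a median of 739 bp.

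Peaks with a score of at least 100 were wider than the rest, with a median width of 871 bp (10th to 90th percentile 527 to 1415 bp) against 634 bp (453 to 990 bp) for the other 41180 autosomal peaks. Width and score come from the same reads, so this is a description. Of the strongest peaks, 2898 (80.5%) were wider than the median of the others. Across peaks, which share 1 library, the Spearman correlation of score and width was 0.22 among the strongest and 0.22 among the others.

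Width did not keep rising with score. The median width was 814 bp at scores from 100 to below 110, 933.5 bp from 120 to below 150, 1044 bp from 150 to below 200 and 1039 bp from 200 to below 300. At 300 or more it was 739 bp, with 12 of 15 peaks narrower than the median of all strongest peaks. Of these 15, 4 were narrower than the median of the other autosomal peaks too. The highest scores were thus found mostly in peaks narrower than the typical strongest peak. The exceptions were the peaks of 6168, 1482 and 1189 bp.

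The widest strongest peaks were few. After the 6168 bp peak on chromosome 17, the next were a pair on chromosome 5, chr5:138473133-138478023 and chr5:138489104-138493994. Both were 4891 bp wide and both scored 102.23, close to the minimum. Only 64 of the strongest peaks were wider than 2000 bp, but they made up 46.0% of the 139 autosomal peaks of that width. From 1501 to 2000 bp the share was 41.5% of 530 peaks, and from 1001 to 1500 bp it was 22.5% of 4513.

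At the narrow end the share was not lowest in the narrowest peaks. Among peaks of 501 to 600 bp, 3.01% of 9730 were strongest peaks, and among those of 401 to 500 bp, 3.16% of 6385. Among peaks of 301 to 400 bp it was 6.03% of 1493. Only 4 autosomal peaks were at most 300 bp wide, and 2 of them were strongest peaks. The 92 strongest peaks of at most 400 bp took only 27 different scores, and 77 of them (83.7%) shared their score exactly with another strongest peak, against 53.2% of the 3508 wider ones. The score 102.81 occurred in 32 strongest peaks on 16 chromosomes, each 300 to 399 bp wide. The score 110.25 occurred in 14, from 317 to 397 bp, and 117.84 in 10, from 318 to 396 bp. The highest narrow peaks were chr5:139051290-139051647 with a score of 238.48, chr5:91310874-91311250 with 199.13 and chr16:57241886-57242278 with 183.79. The narrowest of all, chr4:48694164-48694375, was 212 bp wide and scored 177.42. How the score depends on the number of reads in such peaks was not tested.

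**Figure D2:**
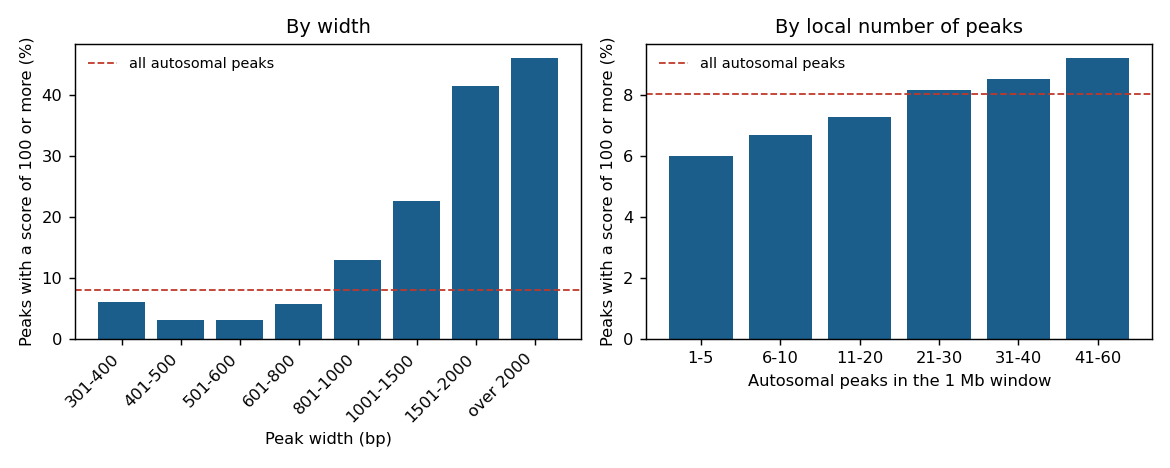
Bars give the percentage of autosomal peaks that reached a score of 100, by peak width in bp on the left and by the number of autosomal peaks in the same 1 Mb window on the right, with the value over all autosomal peaks, 8.04%, dashed. The share was lowest near 400 to 600 bp and reached 46.0% over 2000 bp, and it went from 6.01% to 9.22% from the emptiest to the fullest windows. The 4 autosomal peaks of at most 300 bp, of which 2 reached 100, are not drawn.

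All 19 autosomes held strongest peaks in similar proportion to their peaks. The number ran from 101 on chromosome 19 to 256 on chromosome 2, and as a share of the peaks of a chromosome from 7.40% on chromosome 18 to 8.66% on chromosome 5. Chromosome 2 held 7.11% of the strongest peaks and 7.60% of all autosomal peaks. The median score by chromosome lay between 112.12 and 117.62.

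Density along the chromosome differed more. Counted up to the last peak of each chromosome, chromosome 11 held 1.97 strongest peaks per Mb, chromosome 9 held 1.77 and chromosome 17 held 1.69, while chromosome 3 held 1.08. The density of all autosomal peaks was also highest on chromosome 11, at 24.5 per Mb, and lowest on chromosome 3, at 14.5 per Mb. The chromosomes with the most strongest peaks per Mb were thus among those with the most peaks of any score. When the stretch from the first to the last peak of each chromosome was divided into 5 equal parts, the last part held 26.9% of the strongest and 25.8% of the other autosomal peaks, and the first part 17.6% and 17.7%.

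**Figure D3:**
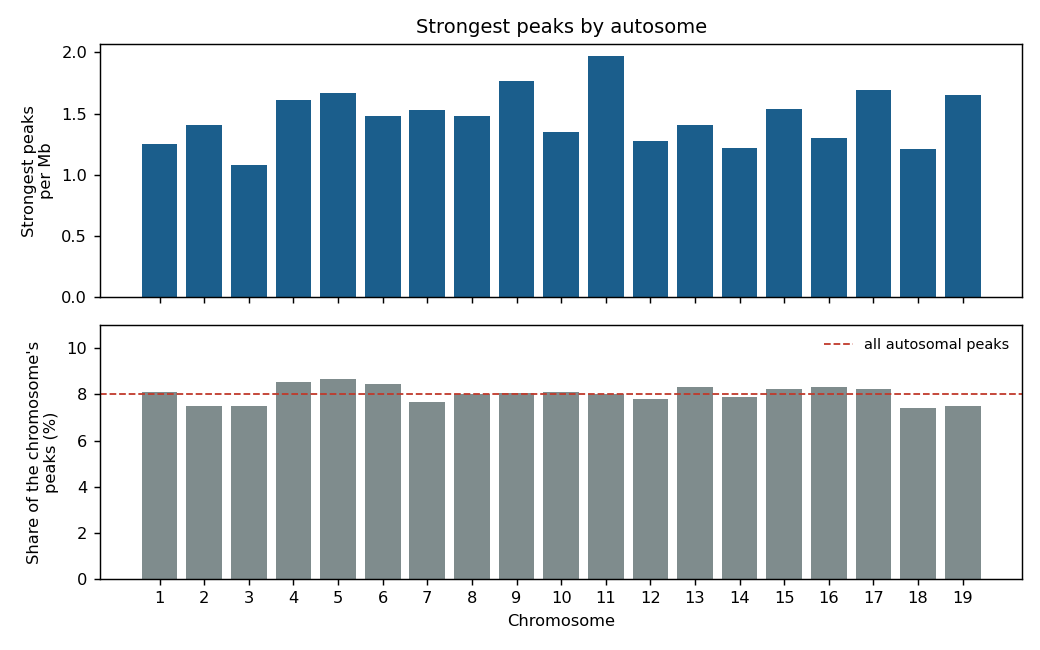
The upper panel shows the number of strongest peaks per Mb of each autosome, counted up to its last peak, and the lower panel the percentage of the peaks of each autosome that reached a score of 100, with 8.04% over all autosomes dashed. Density ran from 1.08 to 1.97 per Mb, while the share stayed between 7.40% and 8.66%.

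The strongest peaks stood among other peaks, mostly weak ones, much as the other autosomal peaks did. The nearest peak of any score lay at a median of 11080 bp from a strongest peak and 12682 bp from another autosomal peak, measured between edges. Another peak lay within 10 kb of 1688 (46.9%) strongest peaks and of 43.1% of the others. The difference was 3.77 percentage points, 3.01 between midpoints, and it turned to -4.04 with a score minimum of 200, which left 66 peaks.

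The neighbours themselves were ordinary. The nearest peak had a median score of 63.22 beside a strongest peak and 63.38 beside another autosomal peak. It was itself a strongest peak for 284 (7.89%) of the strongest and for 8.24% of the others, near the 8.04% of all autosomal peaks that reached 100. Among the 20 highest peaks, 1 had a strongest peak as its nearest neighbour. That was chr5:114622632-114623481, whose neighbour lay 1481 bp away and scored 110.87. The highest peak of all had a neighbour 6758 bp away that scored 63.42.

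Distances between strongest peaks were larger, but these are only 3600 of the 44780 autosomal peaks. No equally small set of peaks was measured beside them. A second strongest peak lay within 10 kb of 196 (5.44%), within 100 kb of 1362 (37.8%), within 500 kb of 2983 (82.9%) and within 1 Mb of 3397 (94.4%), and the median distance was 149173 bp. The closest pair lay 91 bp apart on chromosome 3, at chr3:137667811-137668827 with a score of 103.09 and chr3:137668919-137669966 with 121.23. On chromosome 7, chr7:35604526-35605467 with 149.24 and chr7:35605567-35606279 with 107.43 were 99 bp apart. In both pairs the gap was shorter than either peak. The strongest peak farthest from any other strongest peak was chr15:19002076-19002837, with a score of 103.80. It lay 4690892 bp from the next strongest peak, although a weaker peak lay 85528 bp away.

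**Figure D4:**
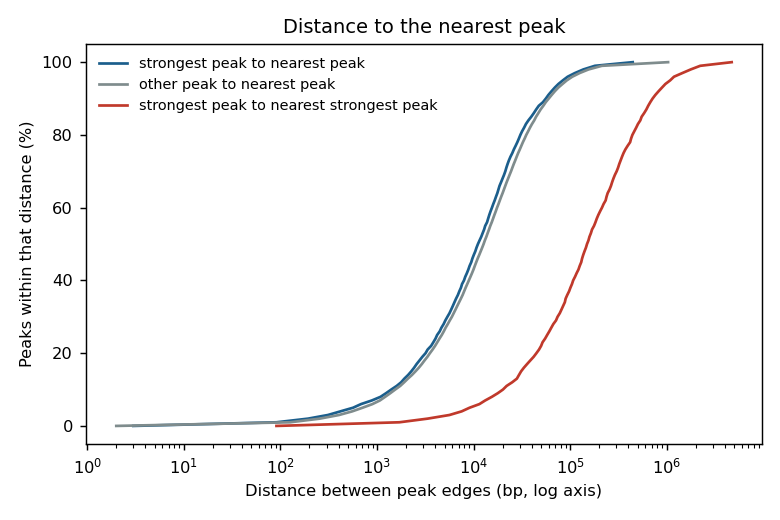
Curves give the percentage of peaks whose nearest neighbour lies within the distance on the log axis, in bp between edges, for strongest peaks to any peak, other autosomal peaks to any peak, and strongest peaks to the nearest strongest peak. The first pair of curves run close together, with medians of 11080 and 12682 bp. The third lies further right, with a median of 149173 bp, and counts only the 3600 strongest of the 44780 autosomal peaks as neighbours.

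Strongest peaks made up a larger share of the peaks where peaks of any score were dense. In fixed windows of 1 Mb, 1572 of the 2400 windows with any autosomal peak held a strongest peak and 828 held none. A single strongest peak was found in 618 windows, and at least 5 in 142 windows, which held 815 of the 3600. The share of peaks that reached 100 was 6.01% in windows with 1 to 5 peaks, 7.27% with 11 to 20, 8.17% with 21 to 30 and 9.22% with 41 to 60. The width of the peaks moved with this too. The median width went from 696 to 1032 bp among the strongest peaks and from 558 to 723 bp among the others, from the emptiest to the fullest windows. The median score of the strongest peaks lay between 111.3 and 116.48 in all these classes of windows. The part of width in the share was not tested.

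The fullest window, on chromosome 11 from 116 to 117 Mb, held 10 strongest peaks among 43 peaks, within 319.5 kb. Their scores ran from 107.79 to 175.73 with a median of 122.75, and the highest was the first of them, chr11:116563822-116564709. On chromosome 17, the window from 27 to 28 Mb held 9 among 47 peaks, led by chr17:27452254-27454502 with 164.25 and a width of 2249 bp. On chromosome 8, the window from 11 to 12 Mb also held 9, among 45 peaks, none above 122.03. There were 6 windows with 8 strongest peaks, and those with the highest single peak were on chromosome 1 from 167 to 168 Mb, with chr1:167619423-167621147 at 228.80, and on chromosome 16 from 13 to 14 Mb, with chr16:13312323-13313359 at 191.59. None of the 20 highest peaks lay in these 5 windows, though scores there reached 228.80, against a 90th percentile of 153.0 over all strongest peaks.

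Some strongest peaks had exactly the width and the score of another peak, which is all that a copy means here. No sequence was compared. Copies were looked for after the wide pair on chromosome 5 had been seen. Of the 3600, 19 (0.53%) had a peak of the same width and the same score on the same chromosome within 1 Mb, and so did 0.74% of the other autosomal peaks. They formed 10 neighbouring pairs. Equal width and score also occurred between chromosomes, where 265 strongest peaks (7.36%) matched another strongest peak. Of the 1672 strongest peaks at least 900 bp wide, 23 matched one on another chromosome and 15 had a copy within 1 Mb. Matches between chromosomes and matches by width were not counted among the other autosomal peaks, so these counts are not shown to be particular to the strongest.

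The clearest case was a run on chromosome 12 that appeared as a whole a second time. In the first run chr12:84298926-84300111 scored 141.11 and chr12:84328750-84329723 scored 103.10. In the second, chr12:84567998-84569183 again scored 141.11 and chr12:84597822-84598795 again scored 103.10. Each run held 5 peaks, with scores of 59.68, 67.71, 141.11, 84.32 and 103.10 in this order, and all 5 pairs were exactly 269072 bp apart with equal widths. No peak within either run lacked its partner.

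**Figure D5:**
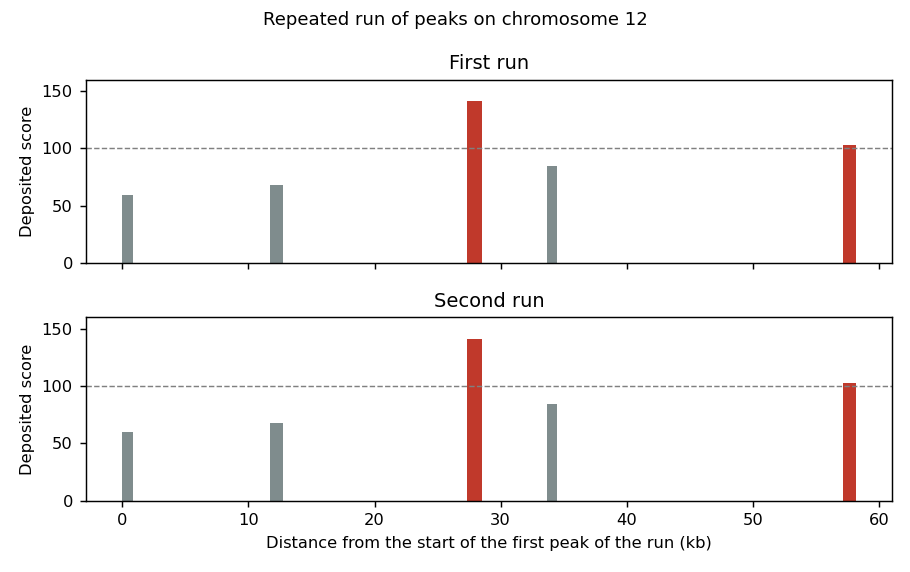
Bars show the deposited score of each peak, drawn at its width, against the distance in kb from the start of the first peak of the run, for the first and the second run on chromosome 12, with peaks at or above the dashed minimum of 100 in red and others in grey. Both runs hold 5 peaks at the same distances with the same scores, the highest being 141.11.

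A second run lay on chromosome 7, where chr7:33442132-33443065 and chr7:33669022-33669955 both scored 102.33 and lay 226890 bp apart from start to start. The 3 peaks that followed each of them, with scores of 78.81, 71.17 and 62.26, were repeated at 226897, 226895 and 226899 bp. On chromosome 12, chr12:22249418-22250421 and chr12:22547776-22548779 both scored 100.53 and were 298358 bp apart, and the peak just before each, with a score of 52.65, was repeated at 298356 bp.

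The other strongest copies had no weaker copied peak beside them. On chromosome 10, 3 peaks of 1012 bp with a score of 102.61 followed each other, chr10:103606941-103607952, chr10:103615450-103616461 and chr10:103623958-103624969, at steps of 8509 and 8508 bp. On chromosome 1, chr1:95776062-95777238 and chr1:95843377-95844553 were both 1177 bp wide and scored 140.43, and on chromosome 5, chr5:95910222-95911059 and chr5:96229341-96230178 scored 140.27. The 4891 bp pair on chromosome 5 was 15971 bp apart from start to start. The remaining pair, on chromosome 6, had scores of 102.41. What makes the widths and scores of such peaks equal was not tested.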

How the data were processed

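KAP1 was immunoprecipitated from crosslinked chromatin with a rabbit polyclonal antibody raised against residues 20 to 418. Per the labels' protocols, each library was made from 10 ng of DNA with fragments of 200 bp and 18 cycles of PCR. The authors deposited 1 list of peaks with a score per peak and no header. Peak names point to MACS, and Bowtie and build mm9 are named in the submitters' processing notes. Not given in the sources used here are the version and settings of MACS, its control library, and what the list's name means by leaving out repeats.

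Peaks were counted, measured and compared with pandas 2.3.3 and numpy 2.4.6 in Python 3.11.15. Distances are bases between edges, and windows of 1 Mb were assigned by peak midpoint. The steps that find nearest distances and copies were tested on simulated data. The merging step was tested only on simulated peaks that did not overlap, and the window and bin counts were not tested. No test was made, since the score chose the members and there was 1 library. The members and lists were chosen with earlier results of these data known. Peaks named are the 20 highest, the 5 on each side of the minimum, the 3 widest and those of the 5 fullest windows, given by their ranges and leaders, with ties broken by highest score. Those beyond this rule (narrow, closest, farthest and copied peaks) were chosen after their values were seen. The RNA table was not used here. Alternatives were other score minimums, distances, midpoints, merging, all chromosomes, and 1 of each set of copies.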

Additional observations from a re-analysis of the deposited data

How the results depend on the processing

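Each of 42 alternative values was set against the 95% exact binomial interval of the reported value, or against 1.5 times a count. Of these, 20 stayed within, 21 moved beyond and 1 changed sign. The intervals cover counting over peaks only. This tally does not measure robustness, because many outcomes were fixed in advance. Counts at other score minimums and shares at other distances change by construction, and merging had nothing to merge. With score minimums of 75, 150 and 200 the number of peaks was 12318, 404 and 66, and their median width was 764, 1032.5 and 979 bp. The share with another peak within 10 kb was 45.21% at 75 and 39.39% at 200. The share with another such peak within 1 Mb was 99.47%, 39.85% and 13.64%, as fewer peaks remained. The largest share on 1 chromosome was 8.17% at 150, on chromosome 2, and 12.12% at 200, on chromosome 17. The excess over the other autosomal peaks in the share with a neighbour within 10 kb was 3.89 points at 150 and -4.04 at 200. The interval ran from -1.07 to 8.88 at 150 and from -15.85 to 8.76 at 200. Each of them holds both signs and the main value of 3.77. Intervals of the excess take the share among the other peaks as fixed. Between midpoints the share within 10 kb was 44.11%. At distances of 1, 5 and 50 kb it was 7.58%, 28.50% and 88.56%, and the excess was 0.96 points at 1 kb and 1.31 at 50 kb. A second strongest peak lay within 100 kb of 37.83% and within 500 kb of 82.86%. Keeping 1 of each set of copies moved none of the 6 summary values beyond its interval, and merging changed nothing because no peaks touched. With all chromosomes the number was 3610. Where the cause is not the smaller or larger number of peaks or the distance itself, the cause was not tested. Alternatives that need mm9 sequence or gene models were not run. No paired analysis was possible because each group had 1 library. The depth of the libraries is unknown, so how far depth limits the number of peaks past 100 was not tested.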

Other observations

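Peaks on the sex chromosomes were outside the choosing rule. Chromosome X held 231 peaks, or 1.39 per Mb up to its last peak, against 14.5 to 24.5 per Mb on the autosomes. Of these, 10 (4.33%) reached a score of 100, against 8.04% of the autosomal peaks. Their scores ran from 100.27 to 141.54, and the highest was at chrX:119944833-119945226. Their median was 110.15, and the median width of all X peaks was 562 bp. Chromosome Y held 13 peaks, and its highest score was 97.29. The labels used here do not give the sex of the mice.

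Copies at a fixed distance were also found among weaker peaks. On chromosome 14, peaks with scores of 51.41, 51.24, 76.00 and 71.67 each occurred 3 times between positions 26702074 and 27109728, with starts 139614 to 139770 bp apart. The highest score in that stretch with a copy was 98.31, in 2 peaks of 2223 bp, just under the minimum for the strongest peaks.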
